A study of Homo sapiens with 21 samples.

Results

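The comparison described here set H1975 cells given osimertinib together with circular IGF1R against H1975 cells given vehicle. It was drawn from the group labels alone and holds 6 of the 21 samples of the series, 3 libraries a group. H1975 is an established line of human lung adenocarcinoma cells, labelled NSCLC, whose EGFR gene is mutated. The group called DMSO_EV carried the genotype label WT and received DMSO, the solvent, and EV, which the submitters did not spell out. The group called Osi_cIGF1R overexpressed cIGF1R, a circular RNA from the IGF1R gene, and was kept in osimertinib at 500 nM; this drug binds mutant EGFR covalently and blocks its kinase. The group called Osi_Lin_EV, which added 3 more libraries to the fit, had WT cells with EV, 500 nM osimertinib and 500 nM linsitinib, an inhibitor of the IGF1R and insulin receptor kinases. Each treatment lasted 8 days. The RNA-seq libraries hold no group with osimertinib and EV but no circular RNA. The effects of the drug and of the circular RNA therefore cannot be told apart in this comparison. Osi_cIGF1R and Osi_Lin_EV differ in both the circular RNA and linsitinib, so these cannot be told apart between those groups either. The vector and promoter behind the overexpression are not given in the labels, nor is whether the cells are 1 clone or a pool. The naming rule left out 287 interferon-stimulated genes, 338 cell-cycle genes, 34 genes of mitochondrial DNA and 91 members of related symbol families. It covered the other 13025 of the 13775 genes tested. Counts and medians of lists and families use all tested members, also those in these sets. Such members numbered 3 among p53 targets, 2 among cytokines and chemokines of NF-kB, and at most 1 in each other list.

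EGFR and IGF1R are receptor tyrosine kinases of the cell surface that pass growth signals to the RAS to ERK kinase cascade and to PI3K and AKT. ERK activity drives immediate early genes and its own phosphatases, while AKT keeps FOXO transcription factors out of the nucleus, so genes of these classes are used as readouts of the respective branch. Cells of lung adenocarcinoma that live through EGFR inhibition are known to lower growth programmes such as ribosome production and to take on traits of differentiated, secretory or quiescent epithelium.

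Values are FPKM, the fragments at a gene scaled to gene length and library size. The table does not name its unit, and the totals of 429553 to 474155 in DMSO_EV and 338034 to 381311 in Osi_cIGF1R were read as FPKM. Within a group, Pearson's r across genes, which are not independent replicates, lay between 0.986 and 0.994. Read depth is unknown, so no counting interval was given. DMSO_EV replicate 2 and Osi_cIGF1R replicate 1 stood apart from their groups on short RNAs made by RNA polymerase III (RN7SL1 at 443 and 53.2 FPKM, against at most 46.4 and 6.37 in the other libraries of the same group). A single extraction text is attached to all samples; it names RNase R, an enzyme that removes linear RNA, and treatment for 3 days, and whether it was meant for these libraries is not settled. Separate cultures are not named for the replicates, so p-values cover the spread between libraries, which may be technical. The markers of the epithelium were present: EPCAM stood at 98.7 and 100 FPKM in DMSO_EV and Osi_cIGF1R, and the summed level of 10 epithelial genes ran from 11200 to 12500 and from 12500 to 15300. NKX2-1, SFTPB and NAPSA, markers of lung adenocarcinoma, were below 1 FPKM in both groups. The summed level of 26 alveolar and lung genes was 115 to 144 FPKM in DMSO_EV, with CAV1 highest, and 303 to 336 in Osi_cIGF1R, with LAMP3 highest. LAMP3, which belongs to the genes left out of the naming rule, by itself stood at 1.88 FPKM in DMSO_EV and at 198 in Osi_cIGF1R. Of the 10 members tested for a difference, 4 were called higher and 4 lower, with a median log2 change of 0.03. Markers of other cells were low, with summed levels of 3.56 to 3.96 and 7.03 to 7.76 FPKM for fibroblasts, 4.8 to 5.9 and 10.1 to 11.7 for leukocytes, and 5.74 to 5.97 and 1.9 to 2.51 for endothelium, in the same order. PTPRC, PDGFRB and PECAM1 were below 1 FPKM in both groups and EMCN was listed at 0. Other members exceeded 1 FPKM in DMSO_EV or Osi_cIGF1R. Among fibroblast markers these were COL1A1 (3.58 and 5.7 FPKM) and ACTA2 (0.156 and 1.48). Among leukocyte markers they were CSF1R (3.14 and 7.28) and CD14 (1.6 and 3.07), and among endothelial markers CDH5 (3.37 and 0.482) and ESAM (2.07 and 1.25). The part of other cells in the results was not tested.

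Across all genes tested, 9499 of 13775 passed the test (69.0%, limma on log2(FPKM + 1), adjusted p under 0.05), 4563 of them higher in Osi_cIGF1R (33.1%) and 4936 lower (35.8%). The median change over all genes was -0.0254 on the log2 scale. When totals were made equal without the genes of mitochondrial DNA and the interferon genes, that median moved up by 0.162 and 59.75% of the calls were higher, against 48.04% as deposited. With a log2 change of at least 1 also asked, 3004 genes (21.8%) remained, 1433 higher (10.4%) and 1571 lower (11.4%). Outside the genes left out 67.5% passed, and 1168 genes (8.97%) rose and 1276 (9.8%) fell by that much. Against Osi_Lin_EV, 3568 genes were higher in Osi_cIGF1R (25.9%) and 4788 lower (34.8%). That group and DMSO_EV enter the same fit, and values of Osi_Lin_EV below are given beside the main ones. Library values of the groups did not overlap for 33.3% of genes higher and 36.5% lower than DMSO_EV, and for 68.1% against Osi_Lin_EV. Because calls were this frequent, a list is described by its counts and its median beside these shares. "Rose" and "fell" below mean a pass of that test against DMSO_EV, and changes are on the log2(FPKM + 1) scale, which understates changes of low genes.

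Promoter stretches of 3 genes are shown because they carry motifs known from immediate early and chaperone genes: the CArG box of serum response elements and the endoplasmic reticulum stress element, read as CCAAT and CCACG with 9 bases between them. The E-box CACGTG, which MYC and related factors can bind, was searched as well. Each stretch is the 250 bases before the start site, read from RefSeq on GRCh38.p14, 5′ to 3′ on the strand of the gene, with every match of that motif in capitals. EGR1, a zinc finger factor induced by ERK, lies on the plus strand (chr5:138465229-138465478). XBP1, a factor of the unfolded protein response, lies on the minus strand (chr22:28800570-28800819). PDIA6, a disulfide isomerase of the endoplasmic reticulum, is on the minus strand as well, and the stretch shown (chr2:10812786-10813035) precedes an internal start, inside the annotated span of the gene.
EGR1: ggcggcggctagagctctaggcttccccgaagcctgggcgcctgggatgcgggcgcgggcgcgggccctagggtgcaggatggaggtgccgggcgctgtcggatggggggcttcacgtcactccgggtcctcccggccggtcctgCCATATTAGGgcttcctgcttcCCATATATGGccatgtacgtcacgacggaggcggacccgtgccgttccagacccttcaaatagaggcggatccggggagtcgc
XBP1: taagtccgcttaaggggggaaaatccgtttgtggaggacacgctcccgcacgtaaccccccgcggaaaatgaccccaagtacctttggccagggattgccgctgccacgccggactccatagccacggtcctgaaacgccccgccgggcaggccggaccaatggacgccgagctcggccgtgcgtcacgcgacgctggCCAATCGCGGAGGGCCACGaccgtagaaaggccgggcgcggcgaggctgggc
PDIA6: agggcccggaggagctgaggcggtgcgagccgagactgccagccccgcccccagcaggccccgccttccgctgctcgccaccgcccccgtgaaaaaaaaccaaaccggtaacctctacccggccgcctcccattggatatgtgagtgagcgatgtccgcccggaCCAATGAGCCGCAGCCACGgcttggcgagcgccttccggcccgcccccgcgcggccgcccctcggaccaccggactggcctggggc
All 3 motifs were searched on both strands in 35116 RefSeq windows of 300 bases (250 before to 50 after a start), of which a gene can have several that overlap. The CArG box occurred in 1.29% of windows, the stress element in 0.0769% and CACGTG in 7.26%, and matches of different motifs overlapped in 1 window. EGR1 has 2 CArG boxes in the stretch shown, and of 21 ERK output genes with a window it and SRF held one; EGR1 fell and SRF did not pass (adjusted p = 0.4). Of 24 chaperone genes of the endoplasmic reticulum with a window, 8 held the stress element (CALR, CANX, CRELD2, ERO1B, HSP90B1, HSPA5, PDIA6 and XBP1), and 7 of the 8 rose. Of 34 ribosome biogenesis and MYC target genes with a window, 18 held CACGTG, and all 18 fell, as did 39 of all 40 members. CACGTG was also in 28.0% of windows of lysosomal genes (7 genes, 6 rose), 20.0% of those of cholesterol genes (4 genes, 4 rose) and 16.1% of those of the chaperones (5 genes, 4 rose), so genes that hold it moved in both directions. A match describes the letters and shows no binding, and the absence of a match says nothing about a factor.

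IGF1R stood at 3.76, 4.41 and 4.24 FPKM in DMSO_EV and at 81.4, 82.3 and 101 FPKM in Osi_cIGF1R, a ratio of means of 21.4 (log2 change 4.12 ± 0.11 SE, adjusted p = 1.52e-12). Every Osi_cIGF1R library was far above every vehicle library, and the 3 Osi_Lin_EV libraries, at 4.41, 3.56 and 3.73 FPKM, stood with the vehicle. The table gives 1 value a symbol, so reads of the circular RNA, of its construct and of IGF1R mRNA cannot be told apart in it, and the rise serves as a check of the label. INSR, the insulin receptor, was at 1.39 FPKM in DMSO_EV and 2.09 in Osi_cIGF1R and rose (adjusted p = 0.00838), though not without DMSO_EV replicate 2 and Osi_cIGF1R replicate 1 together (adjusted p = 0.0943). EGFR, the target of osimertinib, was at 44.5, 51.7 and 60.7 FPKM and at 49.9, 49.6 and 30.4 FPKM. The groups overlapped, and the difference of -0.29 ± 0.17 (SE) did not pass (adjusted p = 0.158).

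Among 20 receptor tyrosine kinases tested of 36 listed, 11 rose and 2 fell, with a median of 0.28. ERBB3, a partner of EGFR that signals to PI3K, was at 17.4, 20 and 21.8 FPKM in DMSO_EV and at 71.2, 72.4 and 58.2 in Osi_cIGF1R (1.72 ± 0.11 SE, adjusted p = 1.46e-08). It was also higher than in Osi_Lin_EV, at 34.9 FPKM. ERBB2, another member of the EGFR family, rose from 15.7 to 28.1 FPKM and did not pass against Osi_Lin_EV, at 25.1 FPKM (adjusted p = 0.136). The 2 receptors that fell were FGFR4, from 2.96 to 1.34 FPKM, and TYRO3, from 2.22 to 1.12. IGFBP5, a secreted protein that binds the ligands of IGF1R, was at 1.32, 2.15 and 2.11 FPKM in DMSO_EV and at 61.6, 62.8 and 46.5 in Osi_cIGF1R. The groups were far apart (4.34 ± 0.14 SE, adjusted p = 9.61e-12), but the Osi_Lin_EV libraries held 57.5, 54.5 and 50.5 FPKM, and the difference between the treated groups was 0.06 with an adjusted p of 0.722.

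Genes driven by ERK fell. Of 36 listed and 30 tested, 23 fell, 19 of them by at least 1 on the log2 scale, and 2 rose, with a median of -1.65; 7 members passed the filter on low values through 1 group alone. EGR1 was at 49.1, 56.3 and 57 FPKM in DMSO_EV and at 0.6, 0.264 and 0.301 in Osi_cIGF1R (-5.32 ± 0.11 SE, adjusted p = 2.15e-13). DUSP6, a phosphatase that switches ERK off, went from 15.4, 13.1 and 13.1 FPKM to 0.0921, 0.0876 and 0.0462 (-3.79 ± 0.10 SE). All 3 treated libraries of each gene were below 1 FPKM and no vehicle library came near them. EGR1 and DUSP6 both passed the filter through DMSO_EV alone and so had to differ from it. FOSL1, an AP-1 subunit, fell from 31.8 to 0.801 FPKM, IER3, an early response gene, from 120 to 14.1 FPKM, and MYC, the growth regulator, from 25.4 to 6.74 FPKM (named after its values were seen). In Osi_Lin_EV these genes were low too: EGR1 was at 0.174, DUSP6 at 0.245 and FOSL1 at 0.825 FPKM, and none of the 3 passed between the treated groups (adjusted p = 0.0884, 0.0784 and 0.9).

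The AP-1 genes FOS and FOSB separated the treated groups. FOSB was at 88.7, 65.2 and 62 FPKM in DMSO_EV, at 0.607, 0.691 and 0.633 in Osi_cIGF1R and at 94.4, 97.5 and 107 in Osi_Lin_EV. Osi_cIGF1R alone was low, by 5.93 log2 units against Osi_Lin_EV (adjusted p = 1.75e-13). FOS was low in Osi_cIGF1R as well, at 1.9 to 2.44 FPKM, against 259 to 271 in DMSO_EV and 209 to 220 in Osi_Lin_EV, which stood below the vehicle for FOS and above it for FOSB. CCN2, a matricellular protein and target of YAP, was at 31.6, 28.1 and 26.8 FPKM in DMSO_EV, 3.23, 2.87 and 2.63 in Osi_cIGF1R and 58.6, 59.6 and 64.2 in Osi_Lin_EV. It thus fell in one treated group (-2.93 ± 0.09 SE, adjusted p = 1.18e-11) while the other stood above the vehicle. Against Osi_Lin_EV, 13 ERK genes were higher in Osi_cIGF1R and 7 lower. EPHA4, an ephrin receptor, was a member that rose, from 4.43 to 9.62 FPKM.

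**Figure D1:**
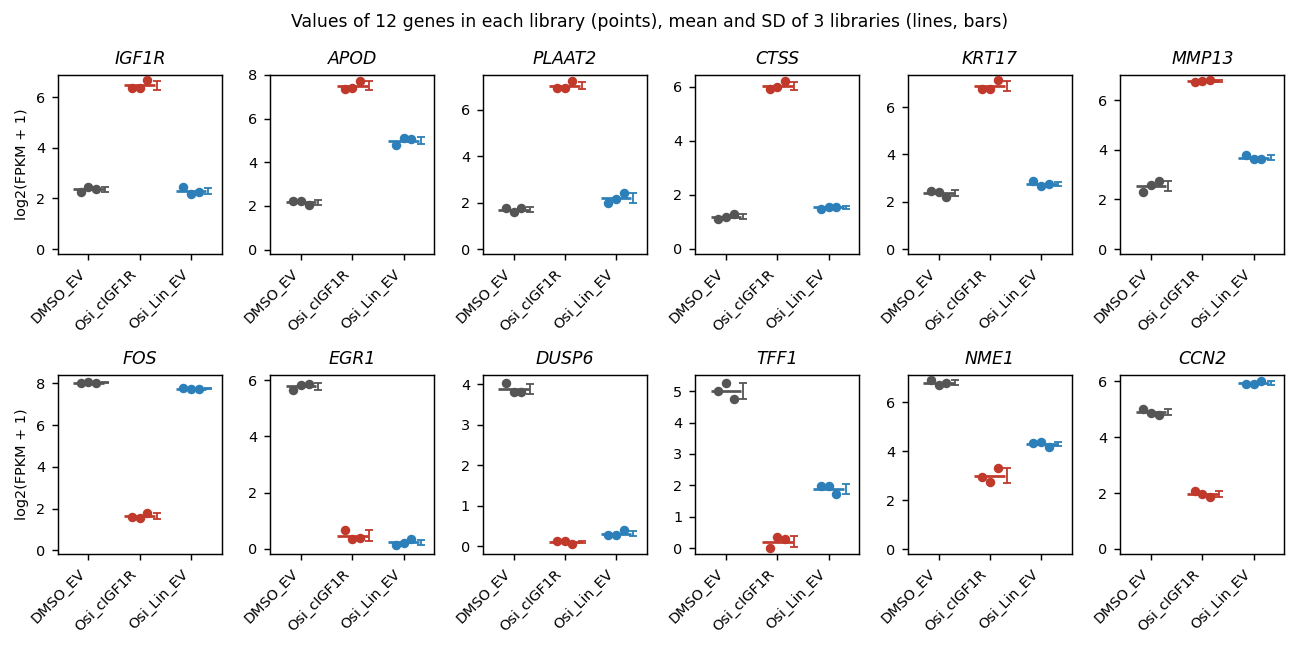
FPKM of 12 genes as log2(FPKM + 1) in each of 9 libraries (points), with the mean (line) and SD (bar) of each group of 3. In the upper row the Osi_cIGF1R libraries lie above all others; in the lower row they lie below the vehicle, and FOS and CCN2 are low in Osi_cIGF1R only, while EGR1 and DUSP6 are low in both treated groups.

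The largest rises outside the genes left out came from lipid, lysosomal, keratin and mucosal genes. The exclusion went by a fixed list, and some genes outside it, such as CTSS and PMAIP1, are known to respond to interferons in other cells. APOD, a secreted lipocalin that carries lipids, was at 3.61, 3.69 and 3.14 FPKM in DMSO_EV and at 160, 170 and 211 in Osi_cIGF1R (5.33 ± 0.12 SE, adjusted p = 2.83e-13). It was at 30.8 FPKM in Osi_Lin_EV, between the other groups. PLAAT2, a phospholipase and acyltransferase, went from 2.28 FPKM to 122, 122 and 149 FPKM and was at 3.63 FPKM in Osi_Lin_EV. KRT17, a keratin of basal and stressed epithelium, was at 4.52, 4.4 and 3.64 FPKM in the vehicle and 107, 108 and 138 in Osi_cIGF1R, with 5.83 FPKM in Osi_Lin_EV. VTCN1, the inhibitory T cell ligand B7-H4, rose from 0.949 to 47.3 FPKM. TCN2, the transport protein of vitamin B12, rose from 1.61 to 43.3 FPKM, and CXCL17, a mucosal chemokine, from 0.631 to 27.1 FPKM. KLHDC7B, PLEKHA4 and ODF3B rose to 61.9, 78.7 and 215 FPKM, from 0.974, 2.33 and 10.3 FPKM in DMSO_EV. Of these 9 genes, all were higher in Osi_cIGF1R than in Osi_Lin_EV as well, by 1.76 (VTCN1) to 4.97 (PLEKHA4) log2 units. CXCL17 passed the filter on low values through Osi_cIGF1R alone and so had to differ from both other groups.

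Of the 15 largest falls, 6 were ERK genes described above, 5 were noncoding RNAs and 4 coded for other proteins. TFF1, a mucosal trefoil peptide, was at 31.4, 37.3 and 26.1 FPKM in DMSO_EV and at 0, 0.281 and 0.211 in Osi_cIGF1R (-4.80 ± 0.14 SE, adjusted p = 3.84e-12). GAL, the neuropeptide galanin, fell from 23.8 to 0.973 FPKM, and NETO2, a receptor accessory protein, from 9.69 to 0.286 FPKM. NME1, a nucleoside diphosphate kinase, was at 118, 103 and 109 FPKM and at 6.69, 5.69 and 9.03 FPKM (-3.79 ± 0.13 SE). DANCR, a noncoding RNA that hosts a snoRNA, fell from 46.5 to 3.43 FPKM, and the snoRNAs SNORD47 and SNORD65 fell from 35.9 to 3.75 and from 11.9 to 0.555 FPKM. The Osi_cIGF1R libraries of these genes stood below every vehicle library, and the Osi_Lin_EV mean lay between (TFF1 at 2.72, GAL at 2.04, NETO2 at 1.24, NME1 at 18.6, DANCR at 21.4, SNORD47 at 11.8 and SNORD65 at 2.71 FPKM). The falls of RMRP, the RNA of RNase MRP, and of MIR12136 rested on scattered values: RMRP was at 11.4, 162 and 6.87 FPKM in DMSO_EV, with an adjusted p of 0.0225 that rose to 0.0686 without Osi_cIGF1R replicate 2 and 0.061 without replicate 3. MIR12136 (adjusted p = 0.0374) lost its call when any 1 library of DMSO_EV or Osi_Lin_EV was left out, with adjusted p-values from 0.0594 to 0.0953.

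FOXO targets and genes held down by PI3K rose: 20 of 24 tested rose, 16 of them by at least 1, and 2 fell, with a median of 1.17 in Osi_cIGF1R and 0.93 in Osi_Lin_EV. TSC22D3, a leucine zipper protein induced by FOXO3 and glucocorticoids, was at 3.67, 4.09 and 5.59 FPKM in DMSO_EV and at 34.4, 34.9 and 44.2 in Osi_cIGF1R (2.84 ± 0.14 SE, adjusted p = 8.7e-10). FBXO32, a ubiquitin ligase subunit of atrophy, rose from 2.79 to 17 FPKM, and PIK3IP1, an inhibitor of PI3K, from 1.42 to 9.77 FPKM. The 2 that fell were KLF2, from 1.37 to 0.589 FPKM, and TRIB2, from 7.26 to 5.29 FPKM. TRIB2, a pseudokinase, was lower in Osi_Lin_EV, at 0.889 FPKM, and its fall did not pass with totals made equal without mitochondrial and interferon genes (adjusted p = 0.133).

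The ATF4 list, the response to amino acid shortage, moved both ways. Of 29 tested, 8 rose and 17 fell, with a median of -0.42. The 3 largest rises were in regulators. NUPR1, a small chromatin protein that passed the filter on low values through Osi_cIGF1R alone and so had to differ, was at 0.139, 0.08 and 0.0342 FPKM in DMSO_EV and at 10.6, 9.52 and 14 in Osi_cIGF1R (3.49 ± 0.12 SE, adjusted p = 2.84e-11). DDIT4, an inhibitor of mTORC1, rose from 20.8 to 98.3 FPKM, and DDIT3, the factor CHOP, from 6.06 to 20.1 FPKM; Osi_Lin_EV held 16.3 and 8.45 FPKM of them. The 3 largest falls were in PHGDH, the entry to serine synthesis, from 59.6 to 14.9 FPKM, PYCR1, of proline synthesis, from 19.7 to 5.49 FPKM, and SLC7A11, the cystine importer, from 8.56 to 2.52 FPKM. Among 30 transporters of amino acids, nucleosides and organic ions, 13 rose and 14 fell. SLC6A9, a glycine transporter, rose from 12.1 to 64.9 FPKM, and SLC43A3, a purine nucleobase transporter, fell from 34.3 to 3.74 FPKM. SLC19A1, the reduced folate carrier, fell from 5.52 to 1.11 FPKM.

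The machinery that makes ribosomes and proteins fell almost throughout. Of 40 genes of ribosome biogenesis and MYC targets, all tested, 39 fell, 29 of them by at least 1, and 0 rose by the limma test, with a median of -1.61. ODC1, which starts polyamine synthesis, was at 27.8, 32.2 and 36.1 FPKM in DMSO_EV and at 2.94, 3.33 and 4.11 in Osi_cIGF1R (-2.89 ± 0.12 SE, adjusted p = 1.4e-10). PAICS, a purine synthesis enzyme, went from 16.4, 17.6 and 19.9 FPKM to 1.23, 1.43 and 1.44, and NOP16, a nucleolar protein, from a mean of 37.5 to 6.03 FPKM. No treated library reached a vehicle library. In Osi_Lin_EV the list had a median of -1.11 against DMSO_EV. In the direct test 24 members were lower in Osi_cIGF1R than there and 1 higher, with ODC1 at 14.2 FPKM and PAICS at 4.02 FPKM in Osi_Lin_EV.

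Translation factors followed, with 27 of 34 down, 3 up and a median of -0.87. EEF1B2, the exchange factor of elongation, was at 118, 140 and 140 FPKM in DMSO_EV and 20.4, 20.6 and 29.1 in Osi_cIGF1R, with 84.5 FPKM in Osi_Lin_EV. EIF5A, another member of the list, fell from 501 to 149 FPKM. EIF4EBP1, the repressor of cap-dependent initiation, fell from 61.4 to 16.4 FPKM, while its relative EIF4EBP2 rose from 11.8 to 16 FPKM. Of 39 splicing factors, 32 fell and 2 rose (median -0.71), among them SNRPB, a core protein of the spliceosome, from 402 to 123 FPKM, and HNRNPA2B1, an RNA-binding protein, from 236 to 77.6 FPKM. The 2 that rose were CLK1, a kinase of splicing factors, from 11.5 to 16.9 FPKM, and SF3B1, from 37.6 to 47 FPKM. SF3B1 lost its call without DMSO_EV replicate 2 and Osi_cIGF1R replicate 1 together (adjusted p = 0.0569).

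Chaperones of the cytosol and of mitochondria fell, 21 of 29, with 3 up and a median of -1.17. HSPE1 and HSPD1, the pair that folds proteins in mitochondria, fell from 217 to 33.9 and from 143 to 26.4 FPKM, and CCT3, a subunit of the chaperonin of actin and tubulin, from 167 to 40.9 FPKM. Against the trend, DNAJA1, a partner of HSP70, rose from 44.4 to 67.9 FPKM and CRYAB, a small heat shock protein, from 0.148 to 1.32 FPKM. Of 44 respiratory chain subunits encoded in the nucleus, 36 fell, 11 of them by at least 1, and 2 rose, with a median of -0.82 and of -0.29 in Osi_Lin_EV. ATP5MC1, of the membrane ring of ATP synthase, was at 78.2, 71 and 61.6 FPKM and at 14, 15.7 and 18.2 FPKM (-2.07 ± 0.12 SE, adjusted p = 4.91e-09). CYCS, cytochrome c, fell from 13.8 to 3.29 FPKM. The 2 that rose were subunits of complex I, NDUFA9 (6.53 to 10.9 FPKM) and NDUFB5 (5.2 to 7.25 FPKM).

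**Figure D2:**
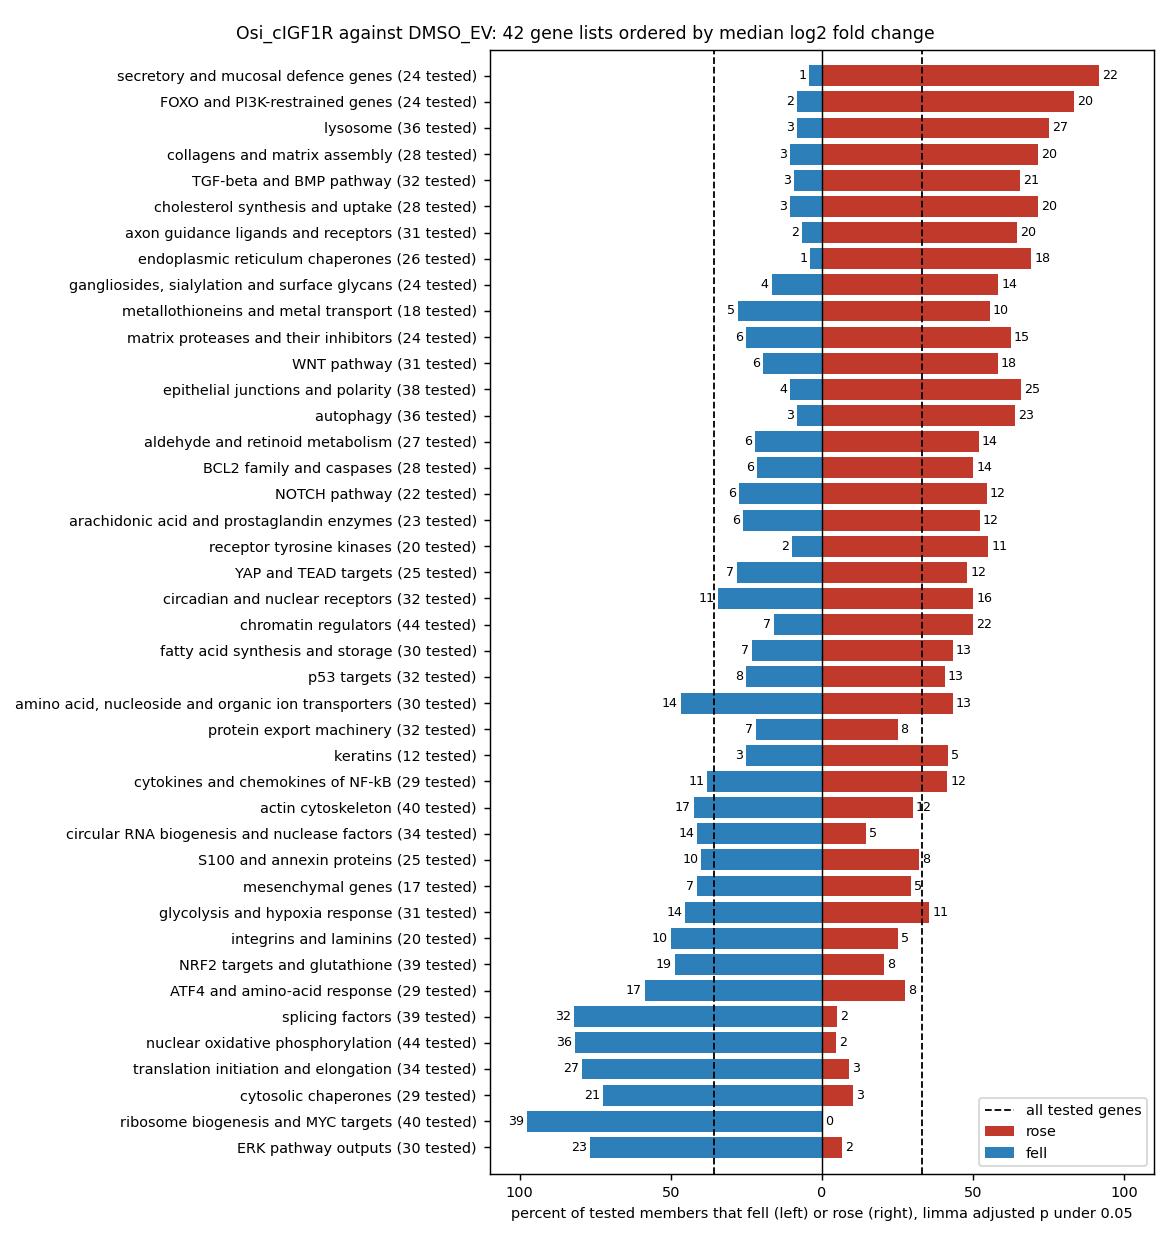
Percent of tested members that rose (right) or fell (left) in Osi_cIGF1R against DMSO_EV (limma, adjusted p under 0.05) in 42 gene lists, with the number of members at the bar ends. Dashed lines mark the shares over all tested genes, 33.1% higher and 35.8% lower; secretory, FOXO and lysosome genes reach farthest to the right, and ribosome biogenesis genes, 39 of 40, farthest to the left.

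Glycolysis and the hypoxia response moved both ways: 11 of 31 rose and 14 fell, and the median of -0.15 became 0.06 with totals made equal without mitochondrial and interferon genes and 0.02 with quantile normalization. LDHB, a lactate dehydrogenase subunit, was at 221, 263 and 284 FPKM in DMSO_EV and 49.1, 52.2 and 64.2 in Osi_cIGF1R, and ENO1, enolase, fell from 860 to 277 FPKM. HK2, the hexokinase at the entry of glycolysis, was at 2.75, 3.31 and 3.54 FPKM in DMSO_EV, 14.7, 14.5 and 11.9 in Osi_cIGF1R and only 1.57, 1.39 and 1.68 in Osi_Lin_EV. Of the named members, the 3 that rose most were NDRG1, HK2 and VEGFA, the latter an angiogenic ligand that went from 25.7 to 75 FPKM. Among 39 NRF2 targets and glutathione genes, 8 rose and 19 fell (median -0.25). AKR1B1, an aldose reductase, fell from 1358 to 400 FPKM, and TXN, thioredoxin, from 383 to 147 FPKM. HMOX1, heme oxygenase, rose from 6.58 to 17.8 FPKM, and GCLC, the first step of glutathione synthesis, from 6.29 to 14.9 FPKM. Without DMSO_EV replicate 2 and Osi_cIGF1R replicate 1 together, 12 rather than 19 of the NRF2 targets and glutathione list fell; with totals made equal without mitochondrial and interferon genes 13 rose and 15 fell.

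Chaperones of the endoplasmic reticulum, which fold secreted proteins, rose while those of the cytosol fell. Of 26 tested, 18 rose, 7 of them by at least 1, and 1 fell, with a median of 0.50. XBP1 was at 24.1, 29.6 and 32.9 FPKM in DMSO_EV, 152, 158 and 185 in Osi_cIGF1R and 27.2, 28 and 22.7 in Osi_Lin_EV (2.48 ± 0.13 SE, adjusted p = 1.27e-09 against DMSO_EV). The Osi_cIGF1R libraries were high and the 2 other groups overlapped. PDIA6, whose promoter is printed with that of XBP1, rose from 71.6 to 147 FPKM and was at 50.9 FPKM in Osi_Lin_EV (named after its values were seen). DNAJB9, a cochaperone, and HERPUD1, of protein degradation at the membrane, rose from 1.44 to 6.2 and from 7.74 to 23.4 FPKM. HSPA5, the central chaperone BiP, named after its values were seen, went from 97.9 to 156 FPKM, with 48.9 FPKM in Osi_Lin_EV. Against Osi_Lin_EV, 22 of the 26 were higher and 0 lower; the median of Osi_Lin_EV against DMSO_EV was -0.18. The member that fell, SDF2L1, did not pass in 8 of 21 other settings. The coat and translocation machinery of protein export did not follow, with 8 of 32 up and 7 down and a median of 0.07; SAR1A, a GTPase of COPII vesicles, rose from 11.2 to 33.7 FPKM, and DAD1, of the glycosylation complex, fell from 123 to 66.5 FPKM. Without both libraries that stand apart, 5 members of protein export machinery rose and 5 fell, and with totals made equal without mitochondrial and interferon genes 18 rose and 4 fell.

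Cholesterol genes rose. Of 28 tested, 20 rose, 8 of them by at least 1, and 3 fell, with a median of 0.56 in Osi_cIGF1R and of -0.37 in Osi_Lin_EV, each against the same vehicle libraries. Between the treated groups 23 members were higher in Osi_cIGF1R and 2 lower. INSIG1, which holds sterol sensing in the endoplasmic reticulum and is itself a sterol-regulated gene, was at 13.6, 15.4 and 17.6 FPKM in DMSO_EV, 59.4, 59.7 and 64.7 in Osi_cIGF1R and 9.26, 9.61 and 8.25 in Osi_Lin_EV. The 3 groups did not overlap. HMGCS1, an early enzyme of the mevalonate pathway, rose from 12.7 to 37.4 FPKM (1.49 ± 0.09 SE, adjusted p = 4.73e-09), and ABCA1, a cholesterol exporter, from 2.53 to 10.4 FPKM. The 3 enzymes that fell were PMVK (9.91 to 5.89 FPKM), FDPS (130 to 85.7 FPKM) and EBP (32.4 to 23.2 FPKM). EBP lost its call without DMSO_EV replicate 2 and Osi_cIGF1R replicate 1 together (adjusted p = 0.0716).

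Fatty acid synthesis and storage genes were mixed, with 13 of 30 up, 7 down and a median of 0.15. Without both libraries that stand apart, 11 members of fatty acid synthesis and storage rose and 4 fell. ACSL1, which activates long fatty acids, rose from 14.9 to 83.4 FPKM and was at 14.4 FPKM in Osi_Lin_EV. SCD, the desaturase that makes oleate, was at 129, 168 and 200 FPKM in DMSO_EV and at 463, 469 and 368 in Osi_cIGF1R, with 89.7 to 110 FPKM in Osi_Lin_EV. ELOVL6, an elongase, fell from 3.19 to 0.698 FPKM, and FADS1, a desaturase of polyunsaturated fatty acids, from 24.9 to 15.7 FPKM. Among 23 enzymes and receptors of arachidonic acid and prostaglandins, 12 rose and 6 fell. CYP4F12, a fatty acid hydroxylase, rose from 0.246 to 5.99 FPKM, and PTGS2, cyclooxygenase 2, fell from 12.6 to 5.37 FPKM while Osi_Lin_EV was at 14.4 FPKM.

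Lysosomal genes rose, 27 of 36 tested, 18 of them by at least 1, with 3 down and a median of 0.97 against 0.37 in Osi_Lin_EV. CTSS, a cysteine protease, was at 1.13, 1.28 and 1.42 FPKM in DMSO_EV, 60.4, 62.1 and 72.6 in Osi_cIGF1R and 1.77, 1.94 and 1.96 in Osi_Lin_EV (4.86 ± 0.10 SE, adjusted p = 1.22e-13). LIPA, the lipase that frees cholesterol in lysosomes, was at 9.68, 13.2 and 16.4 FPKM in DMSO_EV and at 176, 184 and 179 in Osi_cIGF1R. Both genes were high in the Osi_cIGF1R libraries and near the vehicle in Osi_Lin_EV, where LIPA was at 11.9 FPKM. ATP6V1B1, a subunit of the proton pump, rose from 0.851 to 31.9 FPKM with 12.4 FPKM in Osi_Lin_EV. PSAP, the precursor of the saposins, and CTSL, another protease, both named after their values were seen, went from 168 to 692 and from 17.3 to 65.5 FPKM. The members that fell were GLA, an alpha-galactosidase, from 26.1 to 10.3 FPKM, CTSK, from 2.53 to 1.28 FPKM, and ATP6V0A1, from 10.3 to 8.61 FPKM. ATP6V0A1 passed narrowly (adjusted p = 0.0378) and not in 11 of 21 other settings. Of 36 autophagy genes, 23 rose and 3 fell with a median of 0.39. OPTN, a cargo receptor, rose from 9.35 to 73.8 FPKM, ATG9B, a membrane scramblase, from 2.91 to 26.1 FPKM, and GABARAPL1, of the ATG8 family, from 22.8 to 69.8 FPKM. Of them, ATG9B did not pass between the treated groups (28.2 FPKM in Osi_Lin_EV, adjusted p = 0.57). Without DMSO_EV replicate 1, 19 autophagy genes rose and 5 fell.

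**Figure D3:**
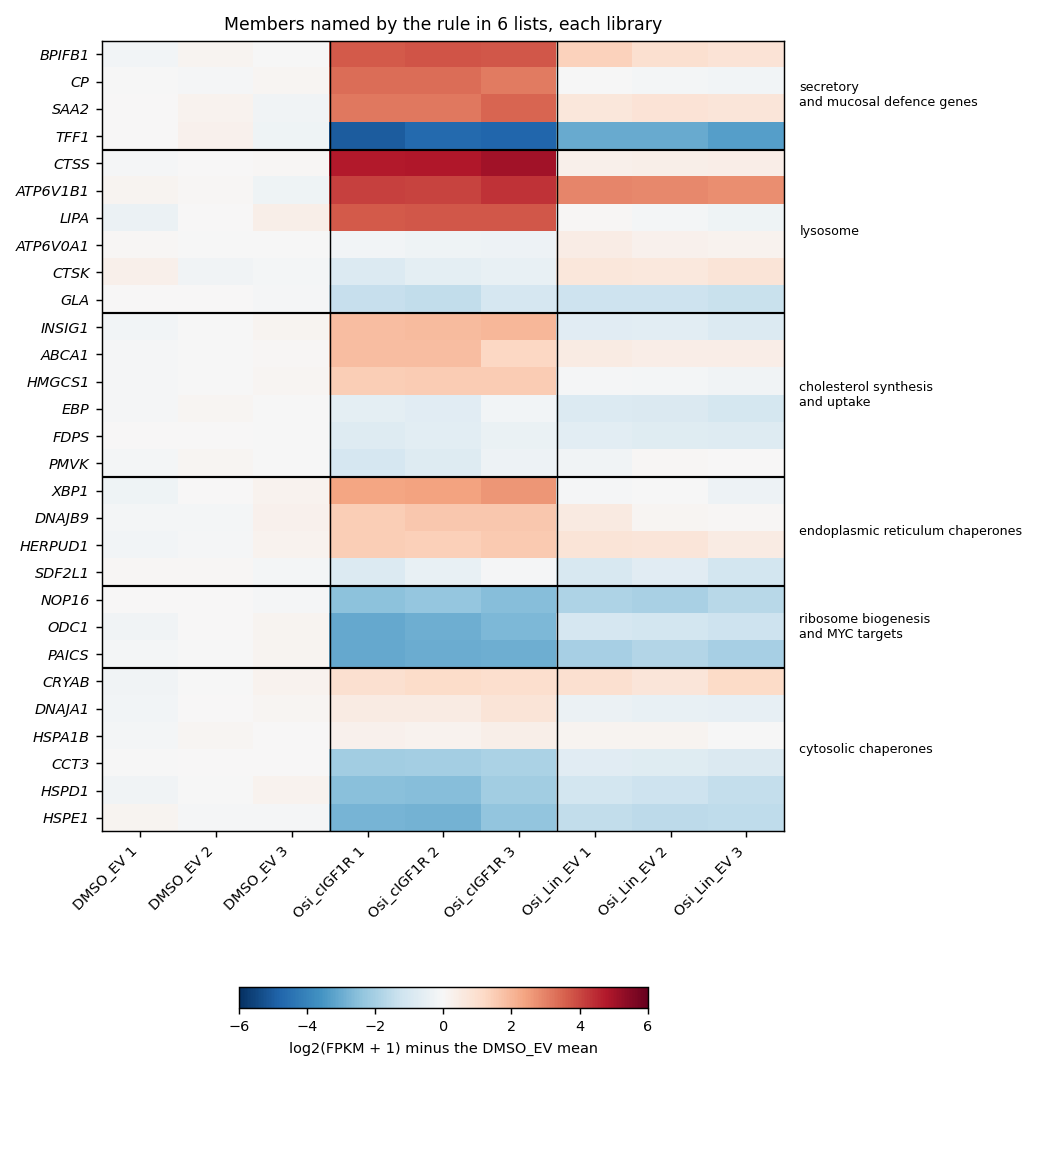
Heat map of log2(FPKM + 1) minus the DMSO_EV mean for the members that the naming rule picked in 6 lists (rows) in each of 9 libraries (columns). Secretory, lysosomal, cholesterol and endoplasmic reticulum genes that rose are red in the 3 Osi_cIGF1R libraries and pale in most Osi_Lin_EV libraries, ATP6V1B1 excepted, and ribosome biogenesis genes and the chaperones HSPE1, HSPD1 and CCT3 are blue in both treated groups, more so in Osi_cIGF1R.

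Secretory and mucosal defence genes had the highest median of the lists plotted, 1.47 in Osi_cIGF1R against 0.000544 in Osi_Lin_EV. Of 39 listed and 24 tested, 22 rose, 15 of them by at least 1, and 1, TFF1, fell; 5 members passed the filter through 1 group alone. In the direct test 21 were higher than in Osi_Lin_EV and 1 lower. SAA2, an acute phase apolipoprotein, was at 58.9, 67.1 and 50.1 FPKM in DMSO_EV, 524, 528 and 674 in Osi_cIGF1R and 94.8, 103 and 96 in Osi_Lin_EV (3.27 ± 0.13 SE, adjusted p = 7.88e-11). BPIFB1, an antibacterial protein of airway secretions, was at 1.73, 2.45 and 2.06 FPKM and at 38.1, 40.3 and 39.4 FPKM, and CP, the copper carrier ceruloplasmin, rose from 0.62 to 14.7 FPKM. In all 3, Osi_cIGF1R stood far above both other groups, but CP passed the filter through Osi_cIGF1R alone and so had to differ. Osi_Lin_EV was also above the vehicle for SAA2 (adjusted p = 0.000313) and, at 5.46 FPKM, for BPIFB1 (adjusted p = 1.82e-05), and was at 0.506 FPKM for CP. AGR2, a disulfide isomerase needed for mucins, rose from 5.72 to 51 FPKM, with 4.4 FPKM in Osi_Lin_EV, and PIGR, which carries IgA across epithelium, from 0.0184 to 5.95 FPKM. These 2 were named after their values were seen, and PIGR passed the filter on low values through treated libraries, without any DMSO_EV library. MUC1, a surface mucin listed as a marker of the line, was at 12.1, 11.8 and 10.4 FPKM, 61.3, 89.7 and 82.3 FPKM, and 41.2, 37 and 35.6 FPKM in the same order of groups.

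Epithelial junction and polarity genes rose, 25 of 38, with 4 down and a median of 0.41. CDH1, E-cadherin, was at 32.4, 42.5 and 50.8 FPKM in DMSO_EV and at 128, 131 and 103 in Osi_cIGF1R (1.52 ± 0.15 SE, adjusted p = 8.74e-07). ELF3 and OVOL1, factors of epithelial differentiation, rose from 73 to 244 and from 6.71 to 25.9 FPKM, while ESRP2, an epithelial splicing factor, fell from 16.4 to 12 FPKM. The fall of ESRP2 did not pass with totals made equal without mitochondrial and interferon genes (adjusted p = 0.0742). Of 12 keratins, 5 rose and 3 fell; their median of 0.06 became -0.02 without DMSO_EV replicate 1 and -0.0017 without Osi_cIGF1R replicate 3. Beside KRT17, KRT15 and KRT16 rose, from 4.61 to 20.5 and from 5.77 to 15.3 FPKM. KRT5 and KRT10 fell, from 1.54 to 0.104 and from 5.27 to 2.08 FPKM, and KRT5 passed the filter through DMSO_EV alone. KRT7, an abundant keratin of simple epithelium, fell from 2385 to 1735 FPKM, but under quantile normalization it was higher by 0.13 (adjusted p = 0.148). UCHL1, a deubiquitinase among the neuroendocrine markers, was at 295, 300 and 292 FPKM and at 43.2, 47.3 and 63 FPKM; CHGA, a defining gene of that state, was below 1 FPKM in both groups.

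Mesenchymal genes went both ways. Of 17 tested, 5 rose and 7 fell, and the median of -0.14 became 0.02 with totals made equal without mitochondrial and interferon genes. FN1, fibronectin, was at 570, 879 and 998 FPKM in DMSO_EV and at 3071, 2977 and 1873 in Osi_cIGF1R (1.70 ± 0.23 SE, adjusted p = 3.62e-05), with 703 to 933 FPKM in Osi_Lin_EV. CD44, the hyaluronan receptor, was at 99, 101 and 117 FPKM and at 17.6, 18.1 and 16.5 FPKM. CDH2, N-cadherin, fell from 7.43 to 1.86 FPKM, and THBS1, a matricellular protein, from 11.2 to 2.46 FPKM. SNAI2 and ACTA2 rose, from 0.806 to 2.7 and from 0.156 to 1.48 FPKM. ACTA2 passed the filter on low values through Osi_cIGF1R alone and so had to differ. FN1 was thus high and CD44 low in every Osi_cIGF1R library, without overlap with the vehicle, while FN1 in Osi_Lin_EV lay within the vehicle range.

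Collagens and matrix assembly genes rose, 20 of 28, with 3 down and a median of 0.72. COL17A1, the collagen of hemidesmosomes, was at 0.0631, 0.0448 and 0.206 FPKM in DMSO_EV and at 5.41, 5.14 and 3.87 in Osi_cIGF1R (2.39 ± 0.12 SE), and COL9A2 rose from 5.7 to 24.5 FPKM. COL17A1 passed the filter on low values through Osi_cIGF1R alone and so had to differ. COL7A1, of anchoring fibrils, fell from 77 to 33.5 FPKM. Among matrix proteases and inhibitors, 15 of 24 rose and 6 fell (median 0.47, and -0.47 in Osi_Lin_EV), and 18 were higher than in Osi_Lin_EV. MMP13, a collagenase, was at 3.98, 4.92 and 5.6 FPKM in DMSO_EV and at 106, 106 and 111 in Osi_cIGF1R, with 11.9 FPKM in Osi_Lin_EV. KLK10, a kallikrein, rose from 3.3 to 52.8 FPKM, and SLPI, an airway antiprotease, from 179 to 369 FPKM, above both the vehicle and Osi_Lin_EV (118 FPKM). SERPINB5 and SERPINE2, protease inhibitors, fell from 19.8 to 7.02 and from 131 to 70.4 FPKM.

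Of 20 integrins and laminins, 5 rose and 10 fell, with a median of -0.20. With totals made equal without mitochondrial and interferon genes the median became 0.00238, and 8 rose and 6 fell. ITGA2, a collagen receptor, fell from 7.15 to 2.15 FPKM and was lower still in Osi_Lin_EV, at 0.214 FPKM. LAMB2, a laminin chain, rose from 25.4 to 63.3 FPKM in Osi_cIGF1R and was at 59.8 FPKM in Osi_Lin_EV. Of 40 actin cytoskeleton genes, 12 rose and 17 fell; the median of -0.05 turned positive with equal totals without mitochondrial and interferon genes (0.16, with 19 up and 11 down), median-of-ratios rescaling (0.00419), quantile normalization (0.00708) and without both libraries that stand apart (0.02). GSN and CAPG, which cap and sever filaments, rose from 43.6 to 197 and from 67.1 to 275 FPKM. PFN1 and CFL1, which turn actin over, fell from 1340 to 570 and from 998 to 485 FPKM. S100 and annexin proteins, which bind calcium, had 8 up and 10 down of 25, and their median of -0.12 became 0.09 with equal totals without mitochondrial and interferon genes and 0.05 with quantile normalization. S100P rose from 154 to 435 FPKM and ANXA1 fell from 109 to 26.9 FPKM.

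Receptors and ligands of developmental pathways were more often up than down. In the TGF-beta and BMP pathway 21 of 32 rose and 3 fell (median 0.62). BMPR2, a receptor for BMP ligands, was at 2, 2.35 and 3.26 FPKM in DMSO_EV and at 12.7, 12.3 and 7.99 in Osi_cIGF1R, and ID2, a target, rose from 0.222 to 3.38 FPKM. NOG, the secreted BMP antagonist noggin, was at 9.73, 9.8 and 7.84 FPKM and at 0.42, 0.56 and 0.521 FPKM (-2.75 ± 0.11 SE), and Osi_Lin_EV was as low, at 0.362 FPKM (adjusted p = 0.275 between the treated groups). NOG passed the filter on low values through DMSO_EV alone and so had to differ from it. In the WNT pathway 18 of 31 rose and 6 fell (median 0.44). FZD4, a receptor, rose from 1.09 to 7.92 FPKM, WNT3A, a ligand, from 0.293 to 4.1 FPKM, and RNF43, a ligase that removes frizzled receptors, from 0.359 to 4.4 FPKM. Osi_Lin_EV was lower in each, at 1.32, 0.736 and 1.29 FPKM. WNT3A passed the filter on low values through Osi_cIGF1R alone and so had to differ. AXIN1, a scaffold of beta-catenin degradation, fell from 16.8 to 10.7 FPKM.

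In the NOTCH pathway 12 of 22 rose and 6 fell (median 0.36). NCSTN, a subunit of the protease that releases the receptor's inner part, rose from 19.2 to 59.3 FPKM, and the receptor NOTCH2 from 10.7 to 27 FPKM. HES1, a target, was at 36.4, 26.7 and 24 FPKM in DMSO_EV, 12.1, 11.8 and 13.7 in Osi_cIGF1R and 53.2, 57.7 and 71.3 in Osi_Lin_EV. It thus stood on opposite sides of the vehicle in the treated groups (-2.18 between them, adjusted p = 4.72e-08). Among YAP and TEAD targets, 12 of 25 rose and 7 fell (median 0.28): NT5E, which makes adenosine at the cell surface, rose from 20.3 to 72.7 FPKM, while CCN1, a relative of CCN2, fell from 89.1 to 39.7 FPKM with Osi_Lin_EV at 114 FPKM. Of 31 axon guidance ligands and receptors, 20 rose and 2 fell, with a median of 0.55 and of 0.50 in Osi_Lin_EV. SEMA5A rose from 0.893 to 9.95 FPKM and the netrins NTN4 and NTN1 from 5.24 to 24.1 and from 7.51 to 28.3 FPKM. EFNB2, an ephrin, fell from 3.98 to 0.72 FPKM. Without DMSO_EV replicate 3, 18 of the axon guidance genes rose and 5 fell.

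Cytokines and chemokines of NF-kB had 12 up and 11 down of 29, with a median of 0.02 that became -0.01 without DMSO_EV replicate 2. CCL28, a mucosal chemokine, was at 1.64, 1.15 and 1.79 FPKM in DMSO_EV and at 20.9, 23.2 and 24.9 in Osi_cIGF1R (3.25 ± 0.11 SE, adjusted p = 2.81e-11). IL1RN, the antagonist of interleukin 1, rose from 0.431 to 3.43 FPKM, and IL1R1, its receptor, from 0.507 to 5.88 FPKM. IL1RN passed the filter on low values through Osi_cIGF1R alone and so had to differ. CXCL8, the chemokine of neutrophils, was at 34.7, 36.8 and 45.5 FPKM and at 6.57, 5.29 and 6.57 FPKM, and IL11 fell from 14.6 to 2.3 FPKM.

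Genes of cell death leaned up. Of 28 BCL2 family and caspase genes, 14 rose and 6 fell (median 0.36, and 0.03 in Osi_Lin_EV). PMAIP1, the BH3-only protein NOXA, was at 2.79, 2.15 and 2.8 FPKM in DMSO_EV, 27.2, 27.9 and 32.6 in Osi_cIGF1R and 3.09, 3.39 and 3.03 in Osi_Lin_EV (3.08 ± 0.11 SE, adjusted p = 2.33e-11). BBC3, or PUMA, rose from 11.7 to 42.2 FPKM with 19.5 FPKM in Osi_Lin_EV, and BMF, a further BH3-only protein, from 9.62 to 46.3 FPKM with 57.1 FPKM there. PMAIP1 was high in Osi_cIGF1R alone and BMF in both treated groups. The effector BAX fell from 60.8 to 30.1 FPKM and BID, which links caspase 8 to it, from 27.3 to 19.3 FPKM. Of 32 p53 targets, 13 rose and 8 fell (median 0.10): BTG2 and TP53INP1, which slow growth, rose from 0.782 to 9.19 and from 0.967 to 9.37 FPKM, and DDB2, of DNA repair, fell from 10.1 to 2.1 FPKM.

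Of 27 genes of aldehyde and retinoid metabolism, 14 rose and 6 fell (median 0.38). ALDH1A1, which makes retinoic acid, was at 0.751, 0.967 and 0.992 FPKM in DMSO_EV, 8.59, 8.65 and 10.6 in Osi_cIGF1R and 4.91, 3.64 and 3.69 in Osi_Lin_EV. DHRS9, a retinol dehydrogenase, rose from 0.135 to 7.29 FPKM, and CYP26B1, which breaks retinoic acid down, fell from 3.11 to 0.341 FPKM. DHRS9 passed the filter on low values through Osi_cIGF1R alone and so had to differ. Of 18 metal transport genes and metallothioneins, 10 rose and 5 fell (median 0.47). SLC30A1, a zinc exporter, rose from 0.778 to 8.66 FPKM and SLC39A4, a zinc importer, fell from 86 to 20.5 FPKM. In iron transport, SLC40A1, the exporter ferroportin, rose from 0.8 to 6.27 FPKM and TFRC, the transferrin receptor for uptake, fell from 40.3 to 12.2 FPKM. CYBRD1, a ferrireductase of iron uptake, rose from 6.43 to 16.2 FPKM, and SLC39A10, another zinc importer, fell from 8.23 to 1.98 FPKM. The treated groups did not pass for TFRC (13.8 FPKM in Osi_Lin_EV, adjusted p = 0.348) or SLC39A10 (1.61 FPKM, adjusted p = 0.218), and Osi_Lin_EV lay between the other groups for the remaining 4. Of 24 genes of gangliosides, sialylation and surface glycans, 14 rose and 4 fell (median 0.49), with ST6GAL1, a sialyltransferase, up from 4.41 to 15.6 FPKM and B4GALT1, a galactosyltransferase, up from 41 to 114 FPKM.

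Of 32 clock genes and nuclear receptors, 16 rose and 11 fell; the median of 0.28 became -0.01 with a filter at 5 FPKM, which left 19 genes. NR3C1, the glucocorticoid receptor, rose from 2.77 to 8.56 FPKM. VDR, the vitamin D receptor, fell from 5.07 to 1.25 FPKM, PPARG from 16.7 to 6.58 FPKM, and NR4A1, an immediate early receptor, from 12.6 to 2.58 FPKM. Of 44 chromatin regulators, 22 rose and 7 fell (median 0.23). KDM6A, a demethylase of histone H3, was at 1.93, 2.01 and 2.44 FPKM in DMSO_EV and 8.59, 7.56 and 6.63 in Osi_cIGF1R, and TET2, which oxidizes methylated cytosine, rose from 0.821 to 4.15 FPKM. CBX2, of the polycomb complex, fell from 19.7 to 8.65 FPKM, and SMARCA4, the ATPase of a remodelling complex, from 38 to 19.6 FPKM.

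Factors that make, export or degrade circular RNA were listed because the treated cells overexpressed one. Of 34 tested, 5 rose and 14 fell; the median of -0.11 became 0.08 with totals made equal without mitochondrial and interferon genes, and 10 rose and 15 fell without Osi_cIGF1R replicate 3. DDX39A, a helicase known to export circular RNAs by length, was at 57.6, 55.9 and 47.1 FPKM in DMSO_EV and at 9.34, 8.47 and 11.8 in Osi_cIGF1R (-2.33 ± 0.12 SE, adjusted p = 1.46e-09). Its relative DDX39B fell from 167 to 58.8 FPKM. QKI, which promotes the joining of circular RNA ends, rose from 4.42 to 7.46 FPKM, and MBNL2, a splicing regulator, from 7.17 to 12.3 FPKM. In Osi_Lin_EV, which had linsitinib and no added circular RNA, DDX39A was at 16.2 FPKM and QKI at 3.66 FPKM.

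**Figure D4:**
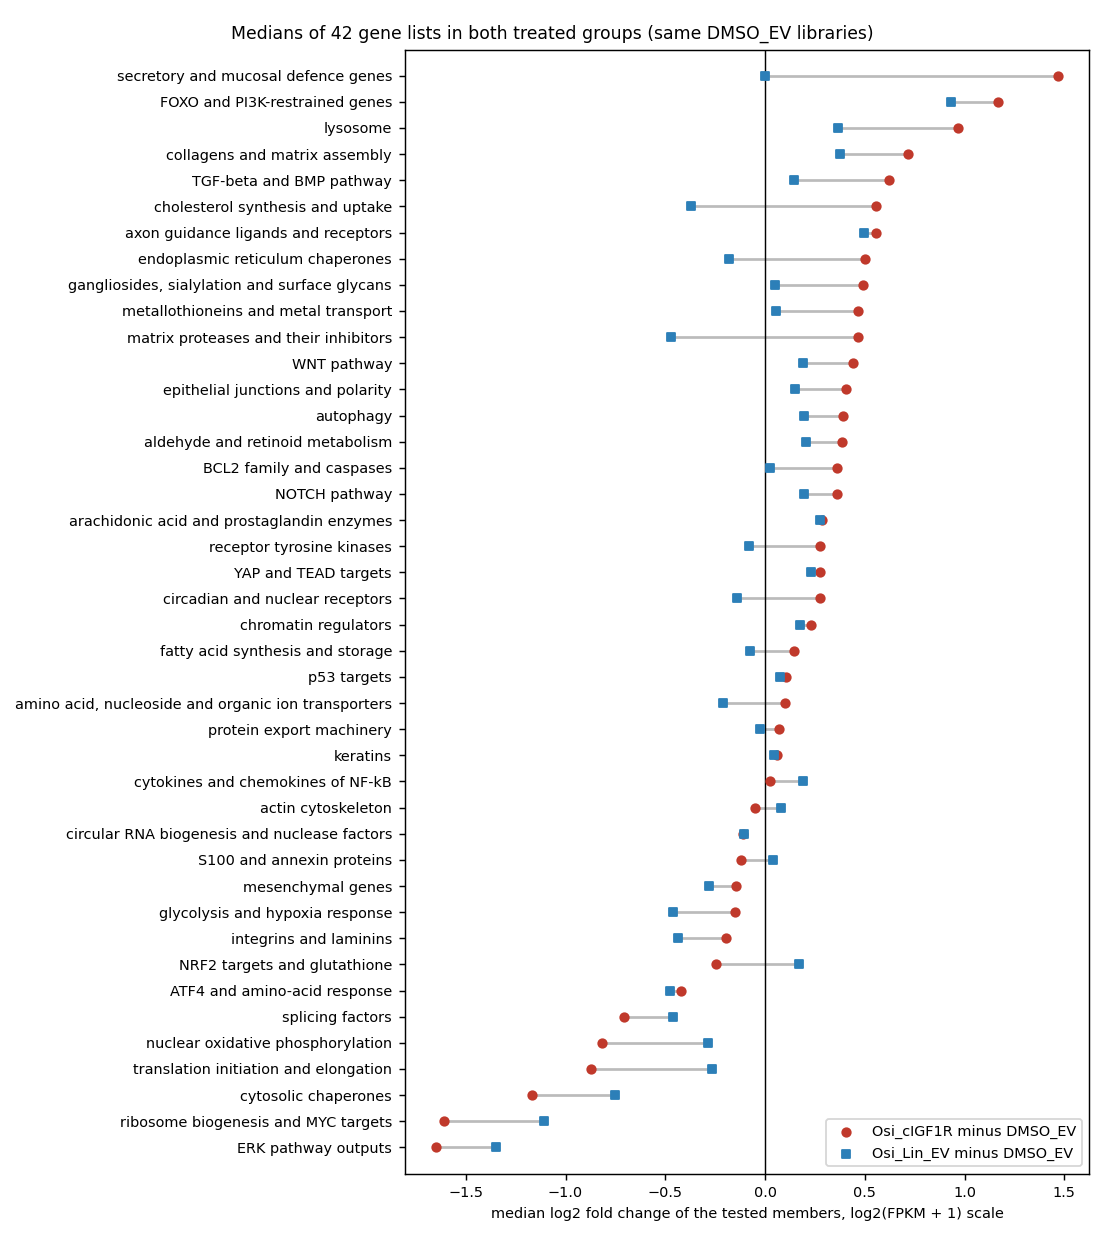
Median log2 fold change of the tested members of 42 gene lists in Osi_cIGF1R (circles) and in Osi_Lin_EV (squares), each against the same 3 DMSO_EV libraries, so that the points of a line are not independent. The circle and the square lie on opposite sides of 0 for cholesterol genes (0.56 and -0.37), endoplasmic reticulum chaperones (0.50 and -0.18) and matrix proteases (0.47 and -0.47), and on the same side for ERK and ribosome biogenesis genes.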

How the data were processed

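Expression in 9 RNA-seq libraries of H1975 was used, 3 in each group. The deposited table gives 1 value a gene symbol and library for 34021 symbols, of which 913 are at 0 throughout. Its unit is not named: the fractional values and unequal totals were read as FPKM made by the authors, with no steps of whole reads, so depth is unknown and no count model was used. FPKM is a share of each library, so abundant transcripts that change shift all others. The submitters' processing notes list STAR, Bowtie2 2.1.0, edgeR and the build hg38 without a role for each; for counter, annotation, strand and filters the entry is "not given in the sources used here". A further 12 libraries of circular RNA were not used.

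The test was limma's moderated test (version 3.58.1, R 4.3.3) of log2(FPKM + 1), with trend and robust variance in 1 fit over 9 libraries, on 13775 genes with at least 1 FPKM in at least 3 libraries, adjusted by Benjamini-Hochberg over all of them, threshold 0.05. The step was tested on simulated data. SE is limma's standard error of the log2 change. Members and the 49 gene lists (1496 symbols, 1452 in the table) were chosen with earlier results of these data known. Named genes are the 15 largest rises and 15 largest falls among called, non-overlapping genes with a higher mean of at least 5 FPKM, up to 3 rises and 3 falls a list, and IGF1R, EGFR, INSR and IGFBP5; others are marked, and not all are printed; some items are not reported here. Alternatives were 3 rescalings and quantile normalization, pseudocounts of 0.1 and 5, no filter or one at 5 FPKM, plain limma, only the compared libraries, a replicate block, a log2 change of at least 1, and each library left out; leaving out DMSO_EV replicate 2 and Osi_cIGF1R replicate 1 together was added after seeing the data. Python 3.11.15, pandas 2.3.3 and matplotlib 3.10.9 made summaries, motif searches and figures; the motifs were chosen after values were seen.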

Additional observations from a re-analysis of the deposited data

How the results depend on the processing

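The 21 alternatives kept the call of 258 of 275 named genes; the 17 others failed the test in at least 1 setting, and KRT7 changed sign under quantile normalization (0.13 against -0.46). Counts moved by over 1.5 times only where the construction asked for fewer genes: a filter at 5 FPKM left 3238 lower against DMSO_EV and 3148 lower against Osi_Lin_EV, and a log2 change of at least 1 left 3004 (1433 higher, 1571 lower) and 1510 (907 higher, 603 lower). With 1 library left out, calls against DMSO_EV ranged from 8805 to 9581 (4166 to 4632 higher, 4639 to 4949 lower), and without DMSO_EV replicate 2 and Osi_cIGF1R replicate 1 together they were 8280 (3943 higher, 4337 lower). Calls against Osi_Lin_EV ranged from 7318 to 8624 with 1 library left out (3105 to 3703 higher, 4177 to 4921 lower) and were 7226 without both (3101 higher, 4125 lower). Replicate numbers gave no pairing: deviations of same-numbered DMSO_EV and Osi_cIGF1R libraries correlated at -0.049, -0.151 and -0.0845 across genes, and a replicate block left 4404 higher and 4800 lower (9204 in all), against Osi_Lin_EV 7963. The share of calls that were higher was 48.04% against DMSO_EV and 59.75% with totals made equal without mitochondrial and interferon genes; against Osi_Lin_EV it was 42.7%, 56.92% with that scaling and 54.57% with median-of-ratios rescaling. Of 49 lists, 37 kept the sign of their median in all 21 settings and 12 did not, 6 of them under a rescaling. Depth is unknown, so values near 0 FPKM carry no counting error.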

Other observations

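Families were also read by symbol, a choice made after values were seen and given as a description. The sets left out of the naming rule were not removed from them. Of 78 proteins of the cytosolic ribosome, 74 fell in Osi_cIGF1R and 0 rose by the limma test, with a median log2 change of -0.955 against -0.168 in Osi_Lin_EV, and 70 were lower than in Osi_Lin_EV. RPL5, of the large subunit, was at 551, 546 and 578 FPKM in DMSO_EV, 96, 99.7 and 126 in Osi_cIGF1R and 468, 486 and 457 in Osi_Lin_EV. Of 78 proteins of the mitochondrial ribosome, 68 fell and 4 rose (median -0.734). Box C/D snoRNAs, guides of ribosomal RNA methylation, fell in 88 of 106 cases, box H/ACA snoRNAs, guides of pseudouridylation, in 39 of 50, and their host genes named SNHG in 17 of 23, SNHG4 among them from 18.4 to 2.07 FPKM. The RNA polymerase III transcripts that set DMSO_EV replicate 2 apart are not members of these families.

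Of 34 proteasome subunits, 28 fell and 3 rose (median -0.75), and of 18 cytosolic tRNA synthetases 14 fell and 1, WARS1, rose, from 10.6 to 203 FPKM. All 12 tubulins tested fell (median -2.16), and of 21 nucleoporins 13 fell and 0 rose by the limma test. RAB GTPases of vesicle traffic went the other way, with 26 of 48 up and 6 down (median 0.278); RAB27B, of secretory granules, rose from 1.37 to 7.76 FPKM and was at 1.69 FPKM in Osi_Lin_EV. ZNF zinc finger genes had 108 up and 72 down of 312, with a median of 0.0777.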
